A study of Mus musculus with 8 samples.

Results

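Host antiviral restriction factors are cellular proteins that block single steps of a virus life cycle. Here 10 of their genes were followed in liver endothelial cells (ECs) of mice with and without endothelial LRP1, namely Ifitm1, Ifitm2, Ifitm3, Mx1, Mx2, Rsad2, Samhd1, Eif2ak2, Bst2 and Zbp1. The members were taken by gene symbol from a table of 22520 protein-coding genes, and each of the 10 symbols was found in it. They were selected on known antiviral roles and with their signal differences between LRP1 eKO and WT libraries already known, so these differences, and the counts of members past a threshold of the fit across all genes, are given as a description and not as tests of the members. The series asked which transcripts differ in ECs after loss of the lipoprotein receptor LRP1, and its mRNA-seq libraries of liver ECs, 4 per genotype, were used. All mice carried floxed Lrp1 alleles (LRP1 f/f) and were C57BL/6 at postnatal day 14 by the labels. WT libraries came from LRP1 f/f; Cdh5-CreER-/- mice and LRP1 eKO libraries from LRP1 f/f; Cdh5-CreER+/- littermates. In the latter the endothelial Cdh5 promoter drives a Cre recombinase fused to an estrogen receptor domain, so that effects of the transgene and of Lrp1 loss cannot be told apart. The ECs were selected with beads coated with a PECAM-1 antibody. The labels do not say how many animals stand behind a library, so p-values measure only the spread between these libraries, which may be technical.

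Restriction factors are mostly switched on by interferons. Interferon receptors activate factors such as STAT2, which joins IRF9 in a complex that binds the interferon-stimulated response element, a pair of GAAA repeats, in front of interferon-stimulated genes. Some of these genes, among them the Ifitm genes, Bst2 and Samhd1, are also expressed without interferon. ECs of the liver sinusoids line the blood stream directly and meet blood-borne viruses early. The members act at different steps: IFITM proteins at membrane fusion, MX proteins on incoming nucleoproteins, viperin (Rsad2) and SAMHD1 on nucleotides, PKR (Eif2ak2) on translation, tetherin (Bst2) on budding, and ZBP1 in cell death.

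The values are quantile-normalized signals with no stated unit, which sum to between 484445 and 485947 per library, so that the depth of the libraries is unknown. They scale with gene length: among 826 genes seen in exactly 1 library, the median value was 5.87-fold lower in the fifth of genes with the longest exons than in the fifth with the shortest. Levels of different genes are therefore compared below as given. Lrp1, the targeted gene, averaged 65.5 ± 13.3 (WT) against 4.41 ± 1.65 (LRP1 eKO; SD, n = 4 each). Endothelial markers were present but low, with Pecam1 means of 2.09 (WT) and 3.02 (LRP1 eKO), and the summed signal of 10 pan-endothelial genes ran from 47.5 to 55.1 in WT and from 69.2 to 86.4 in LRP1 eKO libraries. The sum of 10 stellate cell and fibroblast genes was 2031 to 2344 in WT and 1774 to 2236 in LRP1 eKO libraries, and that of 10 hepatocyte genes, most of it Trf, was 1499 to 1550 and 616 to 902. Alb had means of only 20.8 (WT) and 6.15 (LRP1 eKO), so that the hepatocyte sum rests on Trf. The cells are thus called liver ECs after their selection, while RNA of stellate cell and fibroblast genes was abundant. In such bulk samples, more cells of a type and more RNA per cell cannot be told apart.

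Sequence around the transcription start was at hand in RefSeq (GRCm38.p6) for 7 of the 10 members, Rsad2, Bst2, Ifitm1, Ifitm2, Ifitm3, Eif2ak2 and Samhd1, as windows from 250 bases before to 50 bases after the start. A pair of GAAA with any 2 bases between them, the core of the interferon-stimulated response element, was searched on both strands and occurred in 5 of these 7 windows, against 3.44% of 32851 mouse windows of the same length. A second motif searched, TTCNNNGAA with N for any base, occurred in 4 of the 7 windows, against 8.30% of all windows. As the members were chosen for antiviral roles and with their differences known, nothing is read from these shares. The GAAA pair is shown because both members that were higher and a member that was lower in LRP1 eKO libraries hold it. Capitals mark the GAAA pair. The Rsad2, Bst2 and Ifitm2 stretches lie before the annotated exons, at chr12:26456453-26456652, chr8:71537473-71537672 and chr7:140955988-140956187, and the short Ifitm3 and Eif2ak2 stretches lie just after the start, at chr7:141010714-141010743 and chr17:78882535-78882564, all given 5′ to 3′ on the minus strand.
Rsad2: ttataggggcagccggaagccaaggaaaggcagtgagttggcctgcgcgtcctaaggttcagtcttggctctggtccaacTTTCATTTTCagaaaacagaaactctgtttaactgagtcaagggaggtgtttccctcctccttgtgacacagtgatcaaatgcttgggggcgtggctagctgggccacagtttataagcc
Bst2: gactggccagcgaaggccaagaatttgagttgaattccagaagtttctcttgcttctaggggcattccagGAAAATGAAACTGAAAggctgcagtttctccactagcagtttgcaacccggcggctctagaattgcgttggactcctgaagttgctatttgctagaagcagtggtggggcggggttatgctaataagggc
Ifitm2: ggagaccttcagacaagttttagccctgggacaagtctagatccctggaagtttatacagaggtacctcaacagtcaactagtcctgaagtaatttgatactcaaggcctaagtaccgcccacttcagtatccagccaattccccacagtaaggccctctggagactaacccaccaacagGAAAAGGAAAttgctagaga
Ifitm3: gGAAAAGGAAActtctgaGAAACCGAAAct
Eif2ak2: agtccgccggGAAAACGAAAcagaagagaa

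In the Bst2 stretch, 2 matches of the GAAA pair that overlap each other begin 130 and 124 bases before the start. The Rsad2 match, read on the reverse strand, begins 120 bases before the start and the Ifitm2 match 46 bases before it. In the Ifitm3 stretch, 2 separate matches begin 2 and 19 bases after the start. The Eif2ak2 match begins 18 bases after it. The Ifitm1 and Samhd1 windows held no match of the GAAA pair. A match is a description of these letters and not of a bound site.

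Of the 10 members, 8 had a higher mean signal in LRP1 eKO than in WT libraries, and 2, Ifitm1 and Ifitm2, had a lower mean signal. For the 8, every LRP1 eKO library lay above every WT library, for Ifitm2 every LRP1 eKO library lay below, and for Ifitm1 the groups overlapped. Among the 11391 genes that reached a signal of 1 in 4 or more of the 8 libraries, the groups did not overlap in 42.6%, with the LRP1 eKO signals higher in 20% and lower in 22.5%. These genes were fitted with limma on log2(signal + 1), a scale that makes changes at low signals look smaller, and a gene was called at a Benjamini-Hochberg adjusted p below 0.05 and a 2-fold change. By this rule 4 of the 9 members that entered were called higher and 0 lower, beside 0.869% and 0.79%, together 1.66%, of all genes tested. At the adjusted p alone, 7 were higher and 1 was lower, beside 19% and 22.2%. Since these values chose the members, nothing is read from the counts. The gene lists below were also chosen with earlier results of these data known, so their counts are a description too. Mx1 stayed below the minimum signal, and Mx2, Rsad2 and Zbp1 entered only through their LRP1 eKO signals. The median log2 difference of all genes tested was -0.0095.

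**Figure D1:**
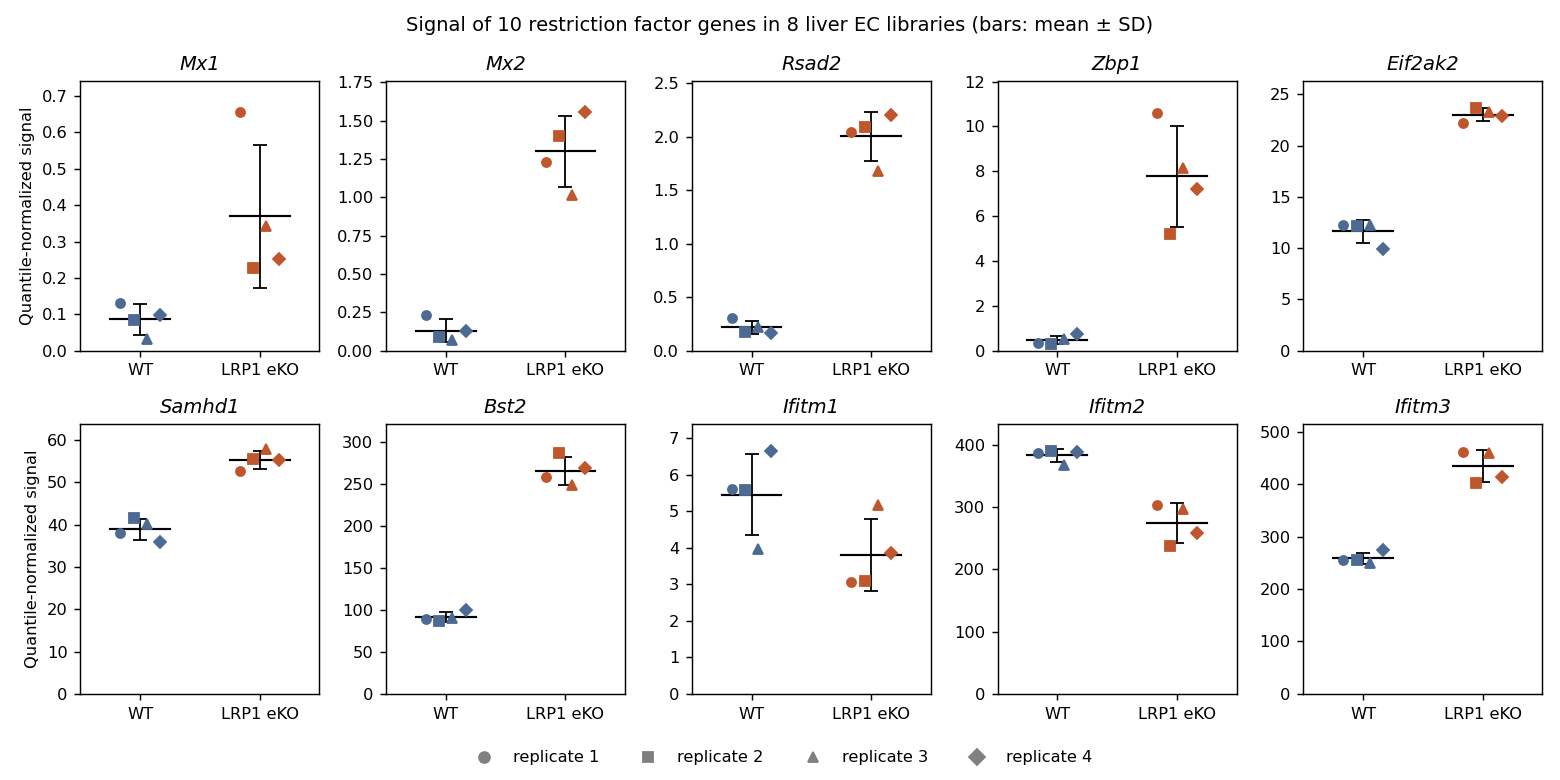
Quantile-normalized signal of the 10 members (y axis, linear, from 0) in the 4 WT and 4 LRP1 eKO libraries, with symbols for the replicate number, a horizontal line for the mean and bars for the SD. In 8 panels all LRP1 eKO points lie above all WT points, in the Ifitm2 panel they lie below, and in the Ifitm1 panel the groups overlap.

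The levels of the members spanned a wide range. In WT libraries the order of the mean signals was Ifitm2, Ifitm3, Bst2, Samhd1, Eif2ak2, Ifitm1, Zbp1, Rsad2, Mx2 and Mx1, from 384 down to 0.0864. Neighbours in this order did not overlap, except for Rsad2 with Mx2 and Mx2 with Mx1. Ifitm2, Ifitm3 and Bst2 lay above 99.1%, 98.7% and 96.2% of all genes of the table in WT libraries. In LRP1 eKO libraries Ifitm3 replaced Ifitm2 at the top, Ifitm2 and Bst2 overlapped, and Zbp1 moved ahead of Ifitm1.

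The Ifitm genes showed opposite differences within a cluster on chromosome 7. IFITM proteins sit in the plasma and endosomal membranes and hinder the fusion of enveloped viruses, IFITM3 mainly in endosomes. Ifitm2 (chr7:140954837-140955987) stood at 387, 390, 368 and 389 in the WT libraries, in the order of replicates 1 to 4, and at 304, 238, 298 and 259 in the LRP1 eKO libraries in the same order, which is kept for all members. Every LRP1 eKO library was lower, and LRP1 eKO replicate 2 was the lowest. The means were 384 ± 10.1 and 275 ± 31.5 (SD, n = 4 each), which is a log2 difference of -0.49 (SE 0.075). Ifitm3 (chr7:141009586-141010770) had signals of 255, 255, 250 and 274 in WT and of 462, 402, 460 and 414 in LRP1 eKO libraries. Here every LRP1 eKO library was higher, and replicate 2 was again the lowest of them. The means were 259 ± 10.5 and 434 ± 31.0 (SD, n = 4 each), which is a log2 difference of 0.74 (SE 0.057). Ifitm1 (chr7:140967221-140969825) lies between them and is transcribed from the plus strand, the other two from the minus strand. Its signals were 5.61, 5.60, 3.98 and 6.65 in WT and 3.08, 3.11, 5.17 and 3.86 in LRP1 eKO libraries. LRP1 eKO replicate 3 lay above WT replicate 3, so that the groups overlapped, and the log2 difference of -0.43 had an SE of 0.16.

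Within each library, Ifitm3 and Ifitm2 changed places. The ratio of the Ifitm3 to the Ifitm2 signal was 0.659, 0.655, 0.679 and 0.706 in the WT libraries and 1.52, 1.69, 1.54 and 1.60 in the LRP1 eKO libraries. Ifitm2 was thus the higher of the pair in each WT library and Ifitm3 in each LRP1 eKO library. Quantile normalization keeps the order of a pair of genes inside a library, but it can change the size of their ratio. The summed signal of the 3 genes went from 648 ± 19.2 to 713 ± 62.8 (SD, n = 4 each) with overlap, while the share of Ifitm3 in it went from 39.9% ± 0.80 to 61.0% ± 1.09 (SD, n = 4 each). As annotated in GENCODE M21, 11233 bases separate Ifitm2 from Ifitm1 and 39760 bases separate Ifitm1 from Ifitm3. Of the 50-base stretches of their transcripts, 3.30% of those of Ifitm2 also occur in Ifitm3 and 3.18% of those of Ifitm3 in Ifitm2, and reads of these stretches cannot be assigned to either gene of the pair with certainty. Of the 655 exon bases of Ifitm2, 268 are shared with the gene model Gm45717 on the same strand, and how reads of this stretch were assigned is not given in the sources used here.

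**Figure D2:**
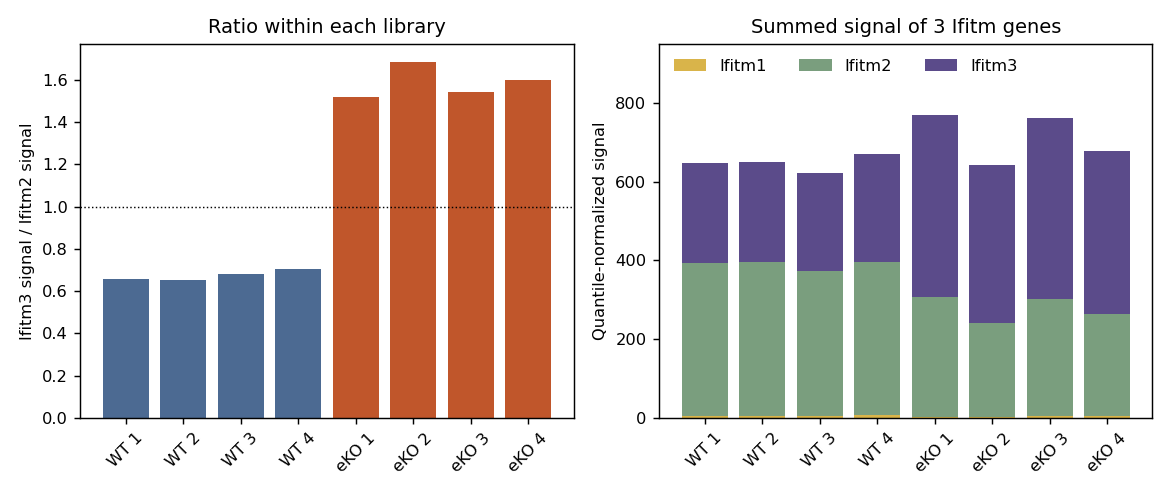
Left, the ratio of Ifitm3 to Ifitm2 signal in each library (y axis, no unit), with a dotted line at equal signals. Right, the quantile-normalized signals of Ifitm1, Ifitm2 and Ifitm3 stacked for each library. All 4 WT ratios lie between 0.655 and 0.706 and all 4 LRP1 eKO ratios between 1.52 and 1.69, while the stacked heights overlap.

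Of the other genes of the Ifitm family, 7 were in the table and only Ifitm10 passed the minimum signal, with means of 4.22 and 3.55 (log2 difference -0.20, limma adjusted p = 0.060). The difference of Ifitm10 passed an adjusted p of 0.05 without WT replicate 4 (-0.23), without LRP1 eKO replicate 3 (-0.26), with array weights, which weigh each library by its spread (-0.18), and with the macrophage level as a covariate (-0.25). Ifitm5, a gene of osteoblasts, had means of 0.410 and 0.367, and Ifitm6 had means of 0.0219 and 0.231 with overlapping groups. Ifitm7 was listed at 0 in every library.

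The Mx genes were the lowest members in both genotypes. Their products are dynamin-like GTPases that form rings around viral nucleoproteins, and in C57BL/6 and most other inbred strains both genes carry mutations that prevent a full protein. They lie on chromosome 16 with 72400 bases between them, Mx1 at chr16:97447035-97462907 on the minus strand and Mx2, annotated as a polymorphic pseudogene, at chr16:97535308-97560900 on the plus strand. Mx2 had signals of 0.235, 0.0925, 0.0730 and 0.126 in WT and of 1.23, 1.40, 1.01 and 1.55 in LRP1 eKO libraries. No WT library reached a signal of 1, and every LRP1 eKO library did. The ratio of the Mx2 means was 9.86, while the log2(signal + 1) difference was 1.02 (SE 0.088), just inside the 2-fold limit. Mx2 fell short of it without WT replicate 3 (0.99), without LRP1 eKO replicate 2 (0.997), without LRP1 eKO replicate 4 (0.97), with array weights (0.993) and with a pseudocount of 5 in place of 1 (0.30). Mx1 had signals of 0.132, 0.0836, 0.0312 and 0.0992 in WT and of 0.655, 0.227, 0.342 and 0.252 in LRP1 eKO libraries. The Mx1 groups did not overlap, and LRP1 eKO replicate 1 was 2.89-fold above replicate 2, the widest spread of any member among the LRP1 eKO libraries. Fitted without the minimum, its log2(signal + 1) difference was 0.32 (SE 0.090). Between 3.86% and 4.38% of the 50-base stretches of one Mx transcript set occur in the other.

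Of 14 relatives of the Mx proteins, the dynamins, mitofusins, atlastins, EHD ATPases and Opa1, 13 were tested and 0 were called in either direction. At a limma adjusted p below 0.05 alone 6 were higher and 1 was lower, beside 19% and 22.2% of all genes tested. At an unadjusted p below 0.05 8 were higher and 1 lower, and the median log2 difference was 0.19. The lower gene was Ehd3, an EHD ATPase of sinusoidal ECs, which went from 29.1 ± 0.71 to 15.2 ± 0.60 (SD, n = 4 each; log2 difference -0.89, limma adjusted p = 7.9e-07). Of the 10 sinusoidal EC markers it was the only one with a lower LRP1 eKO mean, and Oit3 was called higher (means of 0.613 and 2.54). Oit3 entered the fit only through its LRP1 eKO signals. Ehd1 and Dnm2 differed by 0.36 and 0.29 (limma adjusted p = 0.0021 and 0.0028).

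Rsad2 and Samhd1 act on the nucleotides that viruses need. Rsad2 encodes viperin, a radical SAM enzyme that turns CTP into a chain-terminating analog. Its signals (chr12:26442746-26456452) were 0.301, 0.179, 0.226 and 0.164 in WT and 2.04, 2.09, 1.68 and 2.20 in LRP1 eKO libraries. The lowest LRP1 eKO library lay far above the highest WT library. The ratio of means was 9.21 and the log2(signal + 1) difference 1.30 (SE 0.076), and with a pseudocount of 5 the difference was 0.42, short of 2-fold. Its neighbour Cmpk2, a mitochondrial nucleotide kinase transcribed from the opposite strand with 12751 bases between the genes, had means of 0.142 ± 0.075 and 0.945 ± 0.066 (SD, n = 4 each) with no overlap and stayed below the minimum signal.

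Samhd1 encodes a phosphohydrolase that degrades deoxynucleotides, and cyclin-dependent kinases with cyclin A2 phosphorylate it in cycling cells. Its signals (chr2:157097533-157135265) were 38.0, 41.5, 40.2 and 36.0 in WT and 52.6, 55.5, 57.9 and 55.2 in LRP1 eKO libraries. This was a small difference between tight groups, 38.9 ± 2.46 against 55.3 ± 2.17 (SD, n = 4 each), or 0.50 on the log2 scale (SE 0.054). The genes of deoxynucleotide supply and Samhd1 phosphorylation differed mostly the other way. Of 15 tested, 0 were called by limma with the 2-fold limit. At an adjusted p below 0.05 alone 9 were lower and 1 was higher, beside 22.2% and 19% of all genes tested. At an unadjusted p below 0.05 10 were lower and 1 higher. The median log2 difference was -0.25. Ccna2, the gene of cyclin A2, fell from 18.6 ± 0.58 to 8.82 ± 0.63 (SD, n = 4 each; log2 difference -1.0, limma adjusted p = 1.9e-06), just short of 2-fold. Without WT replicate 4, LRP1 eKO replicate 1 or LRP1 eKO replicate 3 it was called, at -1.02 in each case. Cdk1 fell from 85.7 to 47.5 and the thymidine kinase gene Tk1 from 16.6 to 9.60 (limma adjusted p = 1.9e-05 and 5.1e-05). The gene that rose was Rrm2b, the ribonucleotide reductase subunit of cells that do not divide, chosen after its values were seen.

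Eif2ak2 was the most even member among the LRP1 eKO libraries. It encodes PKR, a kinase that senses double-stranded RNA and phosphorylates the translation factor eIF2α. Its signals (chr17:78852564-78882573) were 12.2, 12.1, 12.2 and 9.93 in WT and 22.2, 23.7, 23.3 and 22.9 in LRP1 eKO libraries. WT replicate 4 stood below the other WT libraries, and the LRP1 eKO libraries varied by a CV of 2.68%. The means were 11.6 ± 1.13 and 23.0 ± 0.62 (SD, n = 4 each), which is a log2 difference of 0.93 (SE 0.068), just outside the 2-fold limit. Of the 5113 exon bases of Eif2ak2, 174 overlap the noncoding gene model Gm26637 on the opposite strand, and whether the counting used strand is not given.

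Of 15 genes around PKR, the eIF2 subunits, the other eIF2 kinases, activators, inhibitors and targets, 0 were called by limma with the 2-fold limit. At an adjusted p below 0.05 alone 6 were higher and 2 were lower, beside 19% and 22.2% of all genes tested. At an unadjusted p below 0.05 7 were higher and 2 lower, and the median log2 difference was 0.098. Ddit3, which encodes the stress factor CHOP, rose from 36.4 ± 2.74 to 71.3 ± 11.4 (SD, n = 4 each; log2 difference 0.94, limma adjusted p = 9.1e-05), and was called without LRP1 eKO replicate 3 (1.00). Eif2s2 rose by 0.19 and Eif2b1 fell by 0.17 (limma adjusted p = 0.0036 and 0.0082). Eif2s1, the gene of eIF2α, differed by 0.16 (limma adjusted p = 0.025) and did not pass without WT replicate 1 or 2 or without LRP1 eKO replicate 2 or 4 (0.14 to 0.16), nor with the replicate number as a block (0.16).

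Bst2 combined a high level with a large difference. It encodes tetherin, which holds budding enveloped virions at the cell surface. Its signals (chr8:71534255-71537456) were 89.5, 86.8, 90.4 and 100.2 in WT and 258, 287, 248 and 268 in LRP1 eKO libraries. The groups were far apart, and each varied little. The means were 91.7 ± 5.85 and 265 ± 16.5 (SD, n = 4 each), which is a log2 difference of 1.52 (SE 0.059), which stayed between 1.48 and 1.59 under the alternatives run.

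Zbp1 showed the largest log2(signal + 1) difference of the members. It encodes a sensor of Z-form nucleic acid that recruits RIPK3 and can start necroptosis through MLKL, while the RNA editor ADAR1 restrains it. Its signals (chr2:173206612-173218923) were 0.347, 0.305, 0.508 and 0.729 in WT and 10.6, 5.18, 8.13 and 7.19 in LRP1 eKO libraries. LRP1 eKO replicate 1 was 2.05-fold above replicate 2, and still the lowest LRP1 eKO library lay above every WT library. The mean went from 0.472 ± 0.192 to 7.78 ± 2.25 (SD, n = 4 each), a ratio of 16.5. The log2(signal + 1) difference was 2.55 (SE 0.17), and 10 of the 11391 genes had a higher one. With a pseudocount of 5 the difference was 1.21, below the 1.48 of Bst2 on the same scale.

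The partners of ZBP1 differed less. Of 11 tested genes of this death pathway 1 was called, Adar, which rose from 11.0 ± 0.53 to 23.5 ± 0.69 (SD, n = 4 each; log2 difference 1.04, limma adjusted p = 5.4e-07), and was not called with a pseudocount of 5 (0.84). Over all genes tested, 0.869% were called higher. At the adjusted p alone 4 of the 11 were higher and 1 was lower, beside 19% and 22.2% of all genes tested. The median log2 difference of the 11 was 0.087. Mlkl rose by 0.45, from 10.4 ± 0.37 to 14.6 ± 1.29 (SD, n = 4 each; limma adjusted p = 5.5e-04). Tnfaip3, which encodes the inhibitor A20, rose by 0.67 (limma adjusted p = 2.5e-04). Ripk3 had means of 38.4 ± 3.93 and 35.7 ± 1.54 (SD, n = 4 each) and a log2 difference of -0.10 (limma adjusted p = 0.27).

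**Figure D3:**
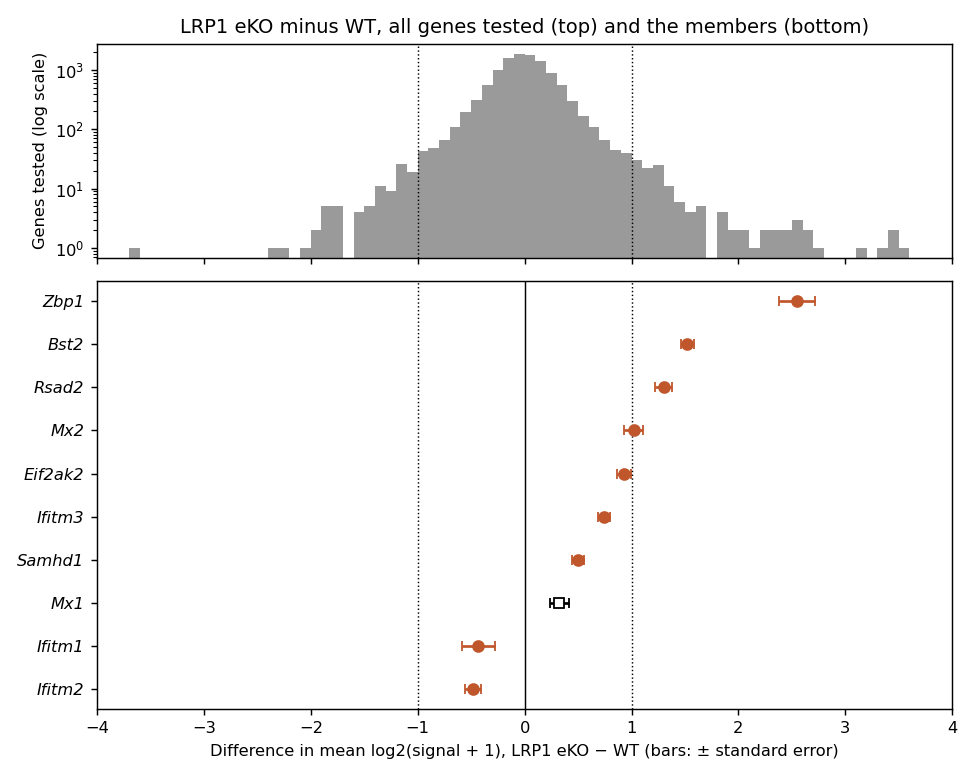
Top, the number of genes tested (y axis, log scale) by their difference in mean log2(signal + 1), LRP1 eKO minus WT. Bottom, the same difference for each member with its standard error, on the same x axis, with an open square for Mx1, which was below the minimum signal, and dotted lines at 2-fold. Zbp1 (2.55), Bst2 (1.52), Rsad2 (1.30) and Mx2 (1.02) lie beyond the right line, and Ifitm1 and Ifitm2 lie left of 0.

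Genes that act beside the members in the interferon response were described by lists. As these lists were chosen with earlier results known, their counts are not tests of the lists. Of 22 tested interferon-induced antiviral effectors outside the members, 13 were called higher and 0 lower, beside 0.869% and 0.79% of all genes tested. At the adjusted p alone 21 were higher and 0 lower, beside 19% and 22.2%, and the median log2 difference was 1.59. Oas2 and Oas3, which were called, and Ddx60, which passed the adjusted p alone, entered only through their LRP1 eKO signals. Ifit1, which binds RNA without a host cap, rose from 1.78 ± 0.29 to 28.4 ± 1.25, Ifit3 from 3.16 ± 0.072 to 24.5 ± 1.74 and Xaf1 from 8.49 ± 0.77 to 47.6 ± 0.66 (SD, n = 4 each; limma adjusted p = 2.6e-09, 2.6e-09 and 7.9e-09). Of 19 tested restriction factors outside the members, 5 were called higher and 0 lower, beside the same 0.869% and 0.79%. At the adjusted p alone 12 were higher and 5 lower, beside 19% and 22.2%, and the median was 0.46. Those with the smallest adjusted p were Trim30d, Trim30a and Adar. Trim30d and Trim30a, genes of the TRIM cluster that holds Trim5, rose by 1.70 and 2.01 (limma adjusted p = 1.2e-07 and 3.9e-07). The lists share genes: Adar is also counted among the Zbp1 partners, and Ifih1, called here, also among the sensors.

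At the adjusted p alone 7 of 11 tested viral RNA and DNA sensors were higher and 1 lower, beside 19% and 22.2% of all genes tested. By the full rule 3 were called higher and 0 lower, beside 0.869% and 0.79%. The 3 were the RIG-I-like receptors Ddx58, Ifih1 and Dhx58, which rose by 1.10, 1.33 and 1.25 (limma adjusted p = 6.9e-07, 1.6e-06 and 6.0e-06) and were not called with a pseudocount of 5 (0.92, 0.88 and 0.66). Among 15 tested genes of interferon sensing and feedback, 3 were called higher and 0 lower, beside the same 0.869% and 0.79%. At the adjusted p alone 7 were higher and 2 lower, beside 19% and 22.2%, and the median was 0.12. Usp18, a feedback inhibitor of the receptor, rose from 1.62 ± 0.28 to 25.2 ± 1.15 and Irf7 from 10.2 ± 0.93 to 65.0 ± 5.14 (SD, n = 4 each; limma adjusted p = 3.7e-09 and 1.7e-08). Of the factors that bind the interferon-stimulated response element, Stat2 rose by 1.25 and Irf9 by 0.99 (limma adjusted p = 1.1e-07 and 1.9e-06). With a pseudocount of 5 Stat2 was just short of 2-fold (0.99). Irf9 was short of it as fitted, and was called without WT replicate 1 or 4, without LRP1 eKO replicate 1 or 2 (1.01 to 1.03), with array weights (1.02) and with a pseudocount of 0.1 (1.05).

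The receptor genes Ifnar1, Ifnar2 and Ifngr1 did not pass an adjusted p of 0.05 as fitted. Ifngr2 passed it with a small difference (log2 difference 0.18, limma adjusted p = 0.037), and its groups overlapped. Ifngr1 differed by 0.12 (limma adjusted p = 0.10). Ifnar1 had means of 21.5 ± 1.49 and 22.0 ± 1.05 (log2 difference 0.030, limma adjusted p = 0.71) and Ifnar2 of 72.1 ± 2.84 and 62.3 ± 7.89 (SD, n = 4 each; log2 difference -0.21, limma adjusted p = 0.064). Ifnar2 was lower at an adjusted p below 0.05 without LRP1 eKO replicate 1 or 3 (-0.26 each) and with the macrophage level as a covariate (-0.33). Ifnb1 was listed at 0 in every WT library and in LRP1 eKO replicates 1 and 3, and at 0.0405 and 0.0465 in LRP1 eKO replicates 2 and 4. Ifng, Ifna4 and Ifnk were listed at 0 in every library.

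**Figure D4:**
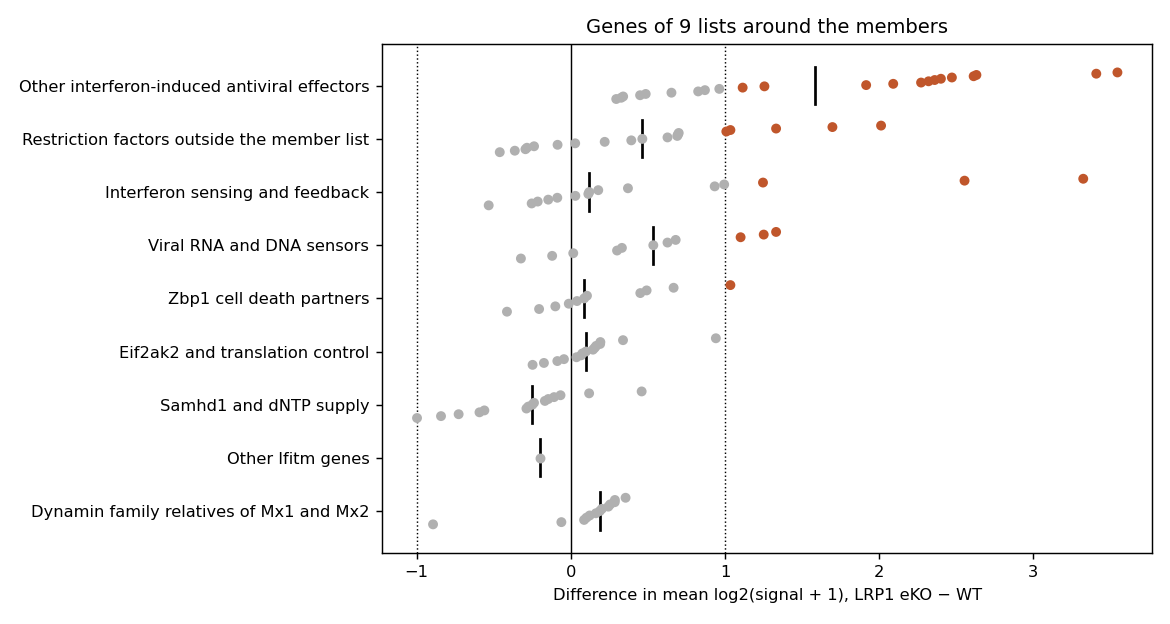
Difference in mean log2(signal + 1), LRP1 eKO minus WT (x axis), of every tested gene of 9 lists around the members, with orange points for called genes, grey points for the others, a vertical bar for the median of the list and dotted lines at 2-fold. The medians run from 1.59 for the antiviral effectors to -0.25 for Samhd1 and dNTP supply.

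Genes with the most similar profiles were sought among all genes tested, by the root mean square (RMS) difference of log2(signal + 1) profiles over the 8 libraries, each centred on its mean. With 4 libraries per genotype this measure mostly follows the size of the genotype difference. The nearest gene to Zbp1 was Irf7 (RMS 0.20), before Oas1a and Oas1g, and the nearest to Mx2 was Irf9 (0.098), before Fgfbp3 and Herc6. For Rsad2 it was Bglap2 (0.079), before Stat2 and Irgm2, and for Bst2 it was Ccl5 (0.095), before Irgm1 and Prl8a2. Bglap2 and Ccl5 entered the fit only through their LRP1 eKO signals, with WT means of 0.0259 and 0.284. The profiles of genes so low in WT libraries follow the pseudocount. Ifitm3 lay nearest to H2-K1, a class I antigen-presenting molecule (0.070), Eif2ak2 to Tnfrsf23 (0.040) and Samhd1 to the hexokinase gene Hk1 (0.030). Ifitm2 lay nearest to the complement gene C3 (0.040), before Hirip3 and Mcm6. Ifitm1 had no gene nearer than Bcl2l12 (0.14).

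Macrophages also express restriction factors, and the libraries differed in macrophage RNA. The summed signal of 13 macrophage and Kupffer cell genes was 191, 208, 224 and 114 in the WT libraries and 742, 53.4, 679 and 398 in the LRP1 eKO libraries. For all 13 the LRP1 eKO mean was the higher, and 0 of 10 tested were called. Clec4f, a Kupffer cell marker, and Timd4 were listed at 0 in every WT library, and Clec4f reached no more than 0.826 elsewhere. The other genes of the list had signal in every WT library, with WT means such as 1.11 for Marco, 0.716 for Vsig4 and 3.03 for Cd5l. LRP1 eKO replicate 2 had less macrophage signal than any WT library, and its signals of the 8 members were higher than those of every WT library. Zbp1, Mx1, Ifitm2 and Ifitm3 had their lowest LRP1 eKO signal in that replicate, and Bst2 and Eif2ak2 had their highest there. The macrophage level used as a covariate was the mean log2(signal + 1) of the 10 tested genes of this list, not the summed signal. With the macrophage level as a covariate, the log2 difference was 2.35 for Zbp1, 1.59 for Bst2, 1.33 for Rsad2, 1.07 for Mx2, 0.93 for Eif2ak2, 0.69 for Ifitm3, 0.49 for Samhd1, 0.25 for Mx1, -0.49 for Ifitm1 and -0.58 for Ifitm2. Without LRP1 eKO replicate 2, it was 2.71 for Zbp1 and 1.49 for Bst2. Markers of plasmacytoid dendritic cells, which release much interferon, summed to 7.94 to 9.21 in WT and 8.21 to 11.1 in LRP1 eKO libraries, with Siglech and Klk1 listed at 0 throughout. Nearly all of this sum was Tcf4 (means of 6.10 and 7.98) and Cox6a2 (2.56 and 1.43), which differed in opposite directions, so that the sum does not show RNA of these cells. Sums of B cell genes stayed at or below 2.09, of T and NK cell genes at or below 0.0776 and of neutrophil genes at or below 3.69 in every library. Erythroid genes summed to 24.7 to 58.0 in WT and 14.6 to 24.7 in LRP1 eKO libraries, and sinusoidal EC genes to 38.2 to 41.6 and 25.5 to 51.4. Most of the sinusoidal sum in WT libraries was Ehd3, and for 9 of its 10 genes the LRP1 eKO mean was the higher. The hepatocyte and pan-endothelial sums separated the genotypes without overlap. Of 8 tested hepatocyte genes, 6 were called lower and 0 higher, beside 0.79% and 0.869% of all genes tested. Of the pan-endothelial genes, Flt1, Eng and Esam were higher in every LRP1 eKO library, Cldn5 was lower in every one, and the others overlapped. The erythroid sums parted only narrowly, with 24.73 in WT replicate 1 and 24.69 in LRP1 eKO replicate 3. Alas2, most of this sum outside WT replicate 2, overlapped, and globin genes had signal in WT replicate 2 only. The part of these cell types, macrophages included, in the members' differences was not tested.

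**Figure D5:**
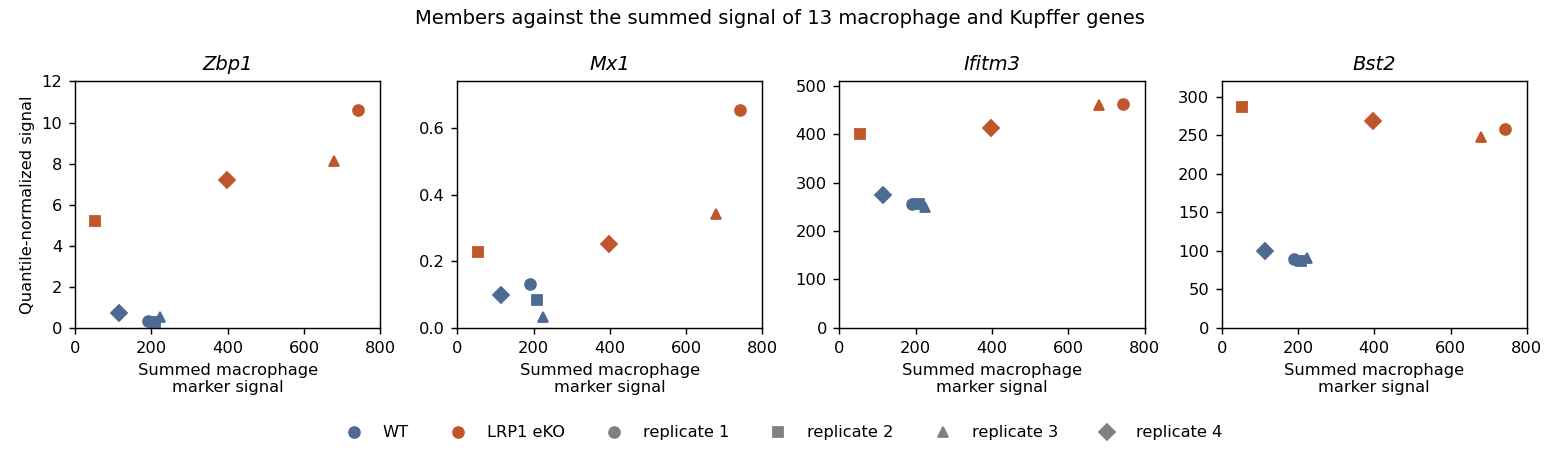
Signal of Zbp1, Mx1, Ifitm3 and Bst2 (y axes, linear) against the summed signal of 13 macrophage and Kupffer cell genes (x axis) in each library, with colours for genotype and symbols for replicate number. LRP1 eKO replicate 2, at the left with a sum of 53.4, lies above all WT libraries in each panel.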

How the data were processed

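mRNA-seq libraries of 4 WT and 4 LRP1 eKO liver EC samples were grouped by their labels. The authors deposited quantile-normalized signal per protein-coding gene. Per the labels, the submitters' processing notes name TopHat2, Cufflinks and mm10, and the study's methods name STAR and featureCounts, and neither describes how this signal was scaled. Quantile normalization removes a global shift between libraries.

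From the signal, log2(signal + 1) was fitted with limma 3.58.1 in R 4.3.3 (genotype only, mean-variance trend, Benjamini-Hochberg adjustment) over the 11391 genes that reached a signal of 1 in 4 or more libraries. Members below this minimum were fitted without it. The fit was tested on simulated data. The 10 members, the 9 pathway lists and the 10 cell type lists were chosen with earlier results of these data known. Named genes were the members, Lrp1, set partners, the 3 smallest adjusted p of each list and the 3 nearest profiles of each member, and other list genes and cell type markers named were chosen after their values were seen. Results of some named genes are not reported here. Of 239 list entries, 3 had no row in the table. Positions came from GENCODE M21 (GRCm38) and promoter windows from RefSeq. Figures used matplotlib 3.10.9 (Python 3.11.15).

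Alternatives were pseudocounts of 0.1 and 5, no minimum, a mean signal of at least 5, robust moderation, no trend, centring on a trimmed mean (30% off each end), array weights, a replicate block, a macrophage covariate, other thresholds, a ratio of arithmetic means, and leaving out each library.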

Additional observations from a re-analysis of the deposited data

Results flagged for a closer look

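In 9 of 137 groups of 4 libraries, 1 library stood apart from the other 3 by more than Dixon's 95% limit for the gap divided by the range, where chance gives 6.85. Among the members these were Ifitm2 in WT libraries, lowest in replicate 3 (0.871), and Eif2ak2 in WT libraries, lowest in replicate 4 (0.949). Among the other named genes they were, in WT libraries, Ddit3, highest in replicate 4 (0.839), Ifitm6, which was above 0 in replicate 4 only (1.0), and Tnfrsf23, lowest in replicate 4 (0.875). In LRP1 eKO libraries they were Ddx58 and Ifitm10, highest in replicate 3 (0.897 and 0.857), and Eif2s2 and Herc6, highest in replicate 4 (0.868 and 0.897). No explanation was tested.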

How the results depend on the processing

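The depth of the libraries is unknown, and values far below 1, such as those of Mx1, Mx2 and Rsad2 in WT libraries, follow the pseudocount. Of 190 recomputed member differences 177 moved by less than 1 SD of the replicates, 13 moved further and 0 changed sign. Changes of the minimum signal, the trend, the moderation or the block leave a member's difference as it is. They could add only to the 177 and could not change a sign. Trimmed mean centring shifted every member alike. Over the alternatives run, Zbp1 ranged from 1.21 to 4.04, Rsad2 from 0.42 to 3.20, Mx2 from 0.30 to 3.30 and Mx1 from 0.077 to 2.09. The 4 called members became 2 with a pseudocount of 5, without Rsad2 and Mx2, and 1 with a mean signal of at least 5, which tested 5 members. They became 3 with array weights, without Mx2, and 8 with no fold limit. Over all genes, a pseudocount of 5 gave 40 higher and 26 lower of 11391. A mean signal of at least 5 gave 63 and 63 of 8318, array weights 147 and 83 of 11391, and no fold limit 2164 and 2526.

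With a pseudocount of 5, the counts of called genes were 9 of the effectors (without Gbp2, Oas1b, Oas3 and I830012O16Rik), 2 of the restriction factors outside the members, 2 of interferon sensing (without Stat2), 0 of the sensors and 0 of the Zbp1 partners. With a mean signal of at least 5, 8 effectors were called. With no fold limit, the counts were 21 for effectors, 17 for other restriction factors, 9 for interferon sensing, 8 for sensors, 5 for Zbp1 partners, 8 for the Eif2ak2 list, 10 for the Samhd1 list and 7 for the dynamin relatives. The count of the Samhd1 list was 1, Ccna2, with a pseudocount of 0.1, trimmed mean centring or the macrophage covariate, and that of the Eif2ak2 list was 1, Ddit3, with this covariate. Ifnar1 turned to -0.0024 with array weights and -0.0047 with the covariate, and leaving out 1 library gave -0.012 (WT replicate 4) to 0.057 (WT replicate 3). Other causes were not tested.

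Leaving out 1 library gave 3 to 4 called members, with Mx2 lost, 13 to 13 effectors, 4 to 5 other restriction factors, with Trim12c lost when WT replicate 2, WT replicate 4 or LRP1 eKO replicate 2 was left out, 3 to 4 genes of interferon sensing, 3 to 4 sensors, with Tlr7 gained without LRP1 eKO replicate 2, 1 to 1 Zbp1 partners, and 0 to 1 genes of the Eif2ak2 and Samhd1 lists. For the other 2 lists the range was 0 to 0. Without LRP1 eKO replicate 2, 174 genes of the whole table were called higher and 83 lower, against 99 and 90 with it, and a pseudocount of 5 gave 40 and 26.

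Same-numbered libraries did not deviate together (correlations across genes of -0.086, -0.13, 0.18 and 0.038), so the numbers were not taken as pairs. With the replicate number as a block, 4 members were called, and the list counts were 13, 5, 3, 3, 1, 0, 0, 0 and 0, as without it.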
